A study of Mus musculus with 19 samples.

Results

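Quiescent preselection double-positive (DP) thymocytes were taken from a CITE-seq series of the mouse thymus as the cells with RNA of *Rag1*, *Arpp21* and *Cd8a* or *Cd8b1* and none of *Cd69*, *Mki67*, *Top2a* and *Ccr7*. A member had at least 1 UMI (unique molecular identifier, marking 1 captured molecule) of *Rag1*, at least 1 of *Arpp21* and at least 1 of *Cd8a* or *Cd8b1*, with 0 UMIs of the other genes, at most 15% mitochondrial UMIs and at least 200 genes detected. Of 85389 deposited barcodes, 79569 passed the filters on genes and mitochondrial UMIs, and 13103 of these were members. The members were therefore chosen on measured values of these genes, and their levels are given only as description. CITE-seq counts the RNA of a cell together with antibodies that carry DNA barcodes and were bound to its surface, so that both measurements came from the same members.

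The 17 mice were female and 4 to 8 weeks old, and each mouse is a replicate. Wild-type (WT) mice were C57BL/6, 3 of them sorted for CD5+TCRb+ cells (WT sorted 1 to 3) and the other 2 unsorted (WT unsorted 4 and 5, with 2 lanes each). There were 2 mice of each lineage-restricted genotype. The CD4-fated mice were AND and OT-II, with a transgenic T cell receptor (TCR) restricted to MHC class II, and MHCI-/-, which lack *B2m*. The CD8-fated mice were F5 and OT-I, with a TCR restricted to MHC class I, and MHCII-/-, which lack *H2-Ab1*. AND and F5 mice were also *Rag1*-/- and unsorted, whereas OT-I and OT-II mice kept *Rag1* and were unsorted. The MHC-deficient mice were sorted for CD5+TCRb+ cells. The F5 TCR was driven by CD2 control elements. A transgenic TCR can be present earlier than a rearranged one, and the 3′ *Rag1* UMIs counted in AND and F5 mice do not test the *Rag1* deletion. The lines were not all made on C57BL/6, since the *B2m* allele came from the 129P2 strain, the *Rag1* allele from 129S7 and the AND transgene from a B10 stock. The mice were run in 3 experiments. The first held WT sorted 1, AND 1 and F5 1, the next WT sorted 2 and 3, both pairs of MHC-deficient mice, AND 2 and F5 2, and the third, at another site, every OT-I and OT-II mouse together with WT unsorted 4 and 5.

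In the thymus, DP thymocytes divide after a TCR β chain has been made, then leave the cell cycle and recombine the TCR α locus with the RAG1 and RAG2 recombinase. These small resting cells hold CD4 and CD8 together and carry little TCR on the surface. A TCR that binds self-peptide on MHC sets off the signal of positive selection, which induces CD69 and CD5, ends *Rag* expression and starts the choice between the CD4 and CD8 lineages. Cells that never receive it die.

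Libraries differed in depth and in traces of other cells. Median RNA UMIs per barcode ran from 1516.5 to 7062 over the 19 lanes, and the members of a mouse held 67365 RNA UMIs in AND 1 (13 members), the fewest, and 18532014 in WT unsorted 4, the most. The summed level of 6 myeloid markers in the members was 4552 CPM (UMIs per 1000000 RNA UMIs of the members) in F5 1 and 40.2 to 430 CPM in the other 16 mice. The summed level of 5 erythrocyte genes was 1247 CPM in F5 2, 2001 CPM in OT-II 1, 347 and 502 CPM in WT unsorted 4 and 5 and at most 67.5 CPM elsewhere. Of 13085 distinct member barcodes, 18 occurred in more than 1 lane, with at most 2 shared by any of the 171 pairs of lanes. Doublet calls took 451 of the 6545 members of WT unsorted 4, 65 of 1531 in OT-II 1 and 40 of 1784 in WT unsorted 5.

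The members expressed the genes of the resting DP stage in every mouse. *Rag1* (chromosome 2, 101638282 to 101649501, minus strand, mm10) had a median of 1543 CPM over the mice, and *Arpp21*, which encodes a cAMP-regulated phosphoprotein, 1398 CPM. *Cd8b1*, the CD8 β chain, had a median of 3551 CPM, *Cd8a* 2021 CPM and *Cd4* 539 CPM. *Aqp11*, a water channel gene that the selection did not use, ranged from 410 to 905 CPM with a median of 653 CPM. *Dntt*, which encodes terminal transferase and adds nucleotides at recombination junctions, ranged from 762 to 1989 CPM. *Rag2* ranged from 44.5 CPM in AND 1 to 248 CPM in WT sorted 1.

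After every cell was thinned to 1500 RNA UMIs, *Aqp11* was detected in 62.3% of 11184 members and in 13.5% of the 61212 other cells. The shares here pool the cells of all mice. WT unsorted 4 and 5 held 6545 and 1784 of the 13103 members before thinning, so they weigh most among members, and no share per mouse was taken. *Rag2* was detected in 23.3% of members and 3.45% of the other cells, and *Dntt* in 84.5% and 24.4%. *Cd4* was found in 53.8% of members and 19.4% of the others. Markers of later stages were rarer in members, *Klf2* in 2.02% against 26.1% and *Itm2a* in 5.22% against 35.3%. *Bcl2* was detected in 3.15% of members and 22.8% of the others, whereas *Bcl2l1*, the survival gene of the DP stage, was detected in 20.03% and 5.13%. A *Foxp3* UMI was found in 4 of the 11184 thinned members and a *Zbtb16* UMI in 1. Markers that the selection did not use thus went with the name of resting preselection DP cells. A member with 0 UMIs of *Cd69* or the cycle genes may still hold their RNA below detection.

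Cells that failed 1 criterion alone show where the selection ends. *Rag1* alone kept out 3500 cells, *Arpp21* 1659, the CD8 genes 196, *Ccr7* 447 and the mitochondrial limit 652. *Mki67* or *Top2a* alone kept out 7751 cells, called cycling DP below, and *Cd69* alone kept out 900, called Cd69-positive DP. Just inside the limits, 1506 members had a single *Rag1* UMI, 1957 a single *Arpp21* UMI, 153 a single UMI of the CD8 genes and 70 at least 14% mitochondrial UMIs. The CD5 antibody had a median over mice of 1546 per 10000 antibody UMIs in cells without *Rag1*, 1217 in members with 1 *Rag1* UMI and 1131 in members with more. TCRb antibody fell in the same order, at 42.1, 21.6 and 17.2 per 10000, and CD4 antibody was lowest outside, at 578 against 806 and 841.

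How large a share of each sample the members made up varied more between mice than between lineages. They were 52.3% of filtered cells in WT unsorted 4 and 18.5% in WT unsorted 5, and 12.2%, 7.04% and 5.58% in WT sorted 1 to 3. MHCII-/- mice had 12% and 11.2% and MHCI-/- mice 3.91% and 4.81%. OT-II mice had 26.3% and 15.7% where OT-I mice had 2.66% and 1.36%, and AND mice had 0.486% and 2.73% where F5 mice had 2.57% and 4.44%. The order of CD4-fated and CD8-fated mice thus turned with the family of genotypes, with members the larger share in OT-II against OT-I and the smaller in MHCI-/- against MHCII-/- and AND against F5.

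**Figure D1:**
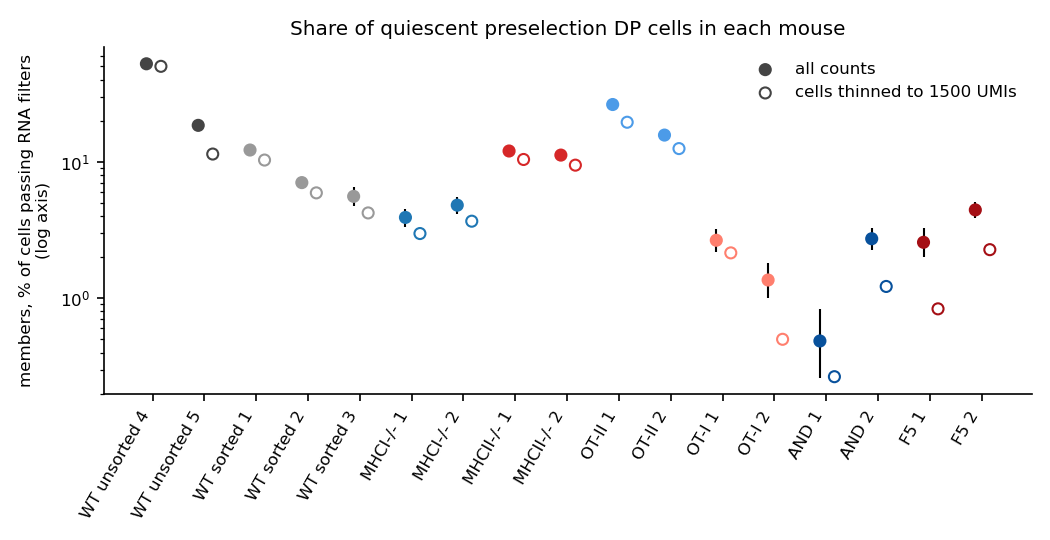
Members as a percentage of the cells passing the RNA filters, 1 point per mouse, with the exact 95% binomial interval of each share as a bar (counting error only). WT unsorted 4 stands highest at 52.3% and AND 1 lowest at 0.486%, and the CD4-fated and CD8-fated mice overlap.

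The share was 8.99% ± 9.99 (SD, n = 6) over all CD4-fated mice. Over CD8-fated mice it was 5.71% ± 4.68 (SD, n = 6). The difference of 3.28 points gave p = 0.491 in an exact two-sided permutation test, and it was -0.178 points without OT-II 1 (p = 0.965, exact permutation). The test exchanged mice across families, so the spread it used holds the differences between families as well as those between mice. By family the CD4-fated minus CD8-fated difference was -1.90 points for AND and F5, -7.24 for the MHC-deficient mice and 18.99 for OT-II and OT-I. Within each of these families both arms shared the sort and the *Rag1* status, whereas between families sort, *Rag1* status and experiment cannot be told apart from genotype. Cells thinned to 1500 UMIs gave 50.1% and 11.4% in WT unsorted 4 and 5, where 5.43% and 47.3% of cells were too shallow to be counted, and 0.266% to 19.5% in the other mice. Members of CD4-fated mice had a median of 2808 ± 827 RNA UMIs, against 3316 ± 1443 in members of CD8-fated mice (SD, n = 6 each). The difference was -508.7 (exact permutation, again across families, p = 0.487).

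Against cycling DP cells, which met the same criteria except that they held *Mki67* or *Top2a*, the members held less RNA of cell cycle genes and more of most other listed genes in their total. These are comparisons of sets chosen on the same RNA, so they are described without a test, as the median over mice of the log2 ratio of CPM with 1 CPM added. Over all 6422 genes of at least 20 CPM in either set the median ratio was 0.24, and 3991 of them were above 0. Every list other than cell cycle had a median above 0, with 1.25 for TCR signal targets (13 of 14 genes), 1.09 for cytokine receptors (9 of 9), 1.05 for chemokine receptors and adhesion (11 of 11) and 1.05 for stress genes of cell preparation (4 of 5). All 20 genes of a DP identity list had a median ratio above 0, with a list median of 1.02, and 15 of them were higher in every one of the 17 mice. Of all 6422 genes, 1136 were higher and 997 lower in every mouse. *Ccr9*, the receptor for the thymic chemokine CCL25, had a median of 1404 CPM in members and 228 CPM in cycling DP (log2 ratio 2.63), and *Cd4* 539 against 98.6 CPM (2.23). *Ets2*, an ETS-family factor, stood at 291 against 97.7 CPM and *Themis*, which tunes TCR signaling during selection, at 641 against 191 CPM. *Rag2* was at 171 against 93.1 CPM and *Dntt* at 1437 against 990 CPM, each higher in 17 of 17 mice.

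Of 20 genes of the TCR complex and its proximal kinases, 19 had a median above 0 and 18 were higher in members in every mouse (list median 1.09). *Trac*, the TCR α constant region, was at 798 CPM in members and 220 CPM in cycling DP, *Lck* at 1703 and 848 CPM, and *Cd3e* at 775 and 474 CPM. *Ptcra*, the pre-TCR α chain of earlier thymocytes, went the other way at 52.8 and 123 CPM and was lower in 16 of 17 mice, and it was the 1 gene of that list with a median ratio below 0. All 12 genes of a quiescence list were higher by the median (list median 1.22), among them the antiproliferative genes *Btg1* at 1309 against 301 CPM and *Btg2* at 890 against 239 CPM. *Foxp1*, a forkhead factor of resting T cells, was at 315 against 150 CPM. Of 22 cell cycle genes that the selection did not use, 21 were lower in members in every mouse (list median -3.51), such as *Hmgb2* at 323 against 5765 CPM and *Stmn1* at 457 against 3002 CPM.

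Against the 900 Cd69-positive DP cells, the members differed in targets of TCR signaling and little in DP identity. In the 14 mice with at least 10 such cells, 1 of 16 TCR signal target genes had a higher median in members (list median -1.02, next to 0.03 over all 6137 genes of at least 20 CPM in either set). *Egr1*, an immediate-early factor of TCR signaling, was at 22.9 CPM in members and 179 CPM in Cd69-positive DP and was lower in members in 14 of 14 mice. *Tox*, needed for CD4 lineage development, was at 206 against 423 CPM and also lower in 14 of 14, *Id3*, an E protein inhibitor, at 248 against 470 CPM and *Gata3* at 89.9 against 177 CPM. *Bcl2* was at 37.9 against 129 CPM and *Cd2*, an adhesion receptor, at 195 against 392 CPM, each lower in all 14. All 9 recombination genes above the minimum level were higher in members by the median, with a list median of only 0.29, and *Rag2* was at 184 against 102 CPM (higher in 12 of 14). *Aqp11* was higher in 14 of 14 mice at 662 against 502 CPM, and 13 of 20 DP identity genes had a higher median (list median 0.06).

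The antibodies, apart from those to CD8a, CD8b, CD69 and CCR7, were not part of the selection and were tested between the sets within mice with edgeR's quasi-likelihood test, with the mouse as a block and Benjamini-Hochberg adjustment. Against cycling DP, 35 of 107 antibodies were higher in members (32.7%) and 25 lower (23.4%). CD5, a negative regulator of TCR signaling, stood at 1015 ± 414 per 10000 antibody UMIs in members and 486 ± 178 in cycling DP (SD, n = 17), a log2 difference of 1.13 ± 0.11 (SE, edgeR adjusted p = 6.83e-08), higher in 17 of 17 mice. CD4 was at 807 against 633 (log2 0.50 ± 0.06) and the SLAM receptor CD150 at 268 against 154 (0.89 ± 0.10), each higher in 17 of 17. CD73, ICOS and the integrin chain CD11a also rose in members.

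Among the 25 lower antibodies, the transferrin receptor CD71 was at 38.2 ± 36.1 per 10000 in members and 143.6 ± 108 in cycling DP (SD, n = 17), with a log2 difference of -1.95 ± 0.12 (edgeR adjusted p = 6.23e-11) and no mouse higher. Neuropilin-1 (CD304) was at 21.9 against 103.9 (-2.55 ± 0.26), Notch1, which drives the earlier steps of T cell development, at 20.3 against 39.1 (-0.91 ± 0.08), and the stem cell factor receptor c-Kit at 22.2 against 32.1. CD24, CD29, CD49d and CXCR4 fell as well, each lower in 17 of 17 mice. Most of the remaining higher calls were small, and with antibody library size in place of TMM scaling 8 were higher and 30 lower. Among the log2 differences from cycling DP given here, those of CD304, CD71 and CD5 were thus the largest.

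Against Cd69-positive DP in 14 mice, 2 antibodies were higher in members (1.87%) and 4 lower (3.74%). CD5 was at 944 ± 412 per 10000 in members and 1156 ± 424 in Cd69-positive DP (SD, n = 14), a log2 difference of -0.41 ± 0.08 (edgeR adjusted p = 0.00824), lower in 13 of 14 mice. TCRb was at 22.4 against 26.1 (-0.31 ± 0.09, adjusted p = 0.0422), CD73 at 11.6 against 13.7 and ICOS at 33.8 against 40.4. The higher antibodies, to TER-119 and to a peptide-loaded H-2Kb, had at most 7.21 per 10000. These calls were few, and 0 remained when the AND or the F5 mice were left out or when sets were chosen at 1500 UMIs, where fewer mice had 10 cells in both sets. CD69 antibody, a description here, was at 10.8 in members and 14.9 in Cd69-positive DP.

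**Figure D2:**
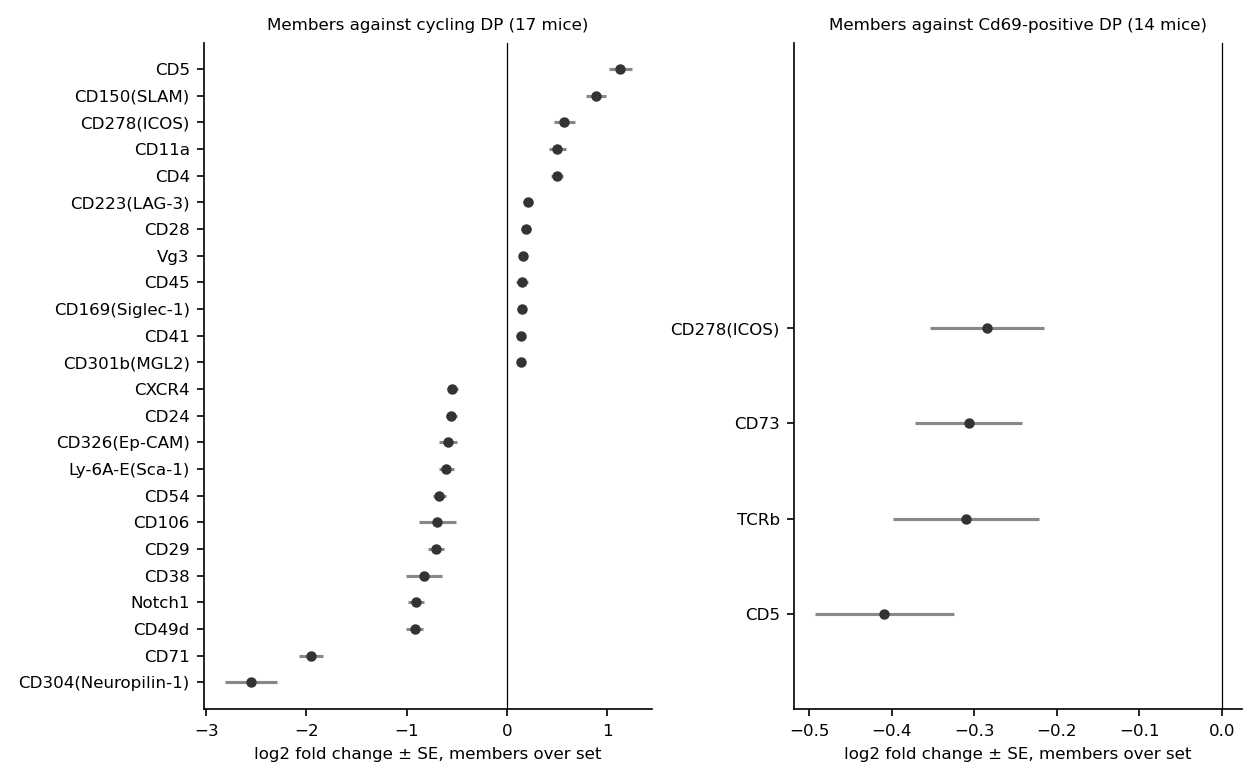
Log2 differences of antibodies between members and cycling DP cells (17 mice) and between members and Cd69-positive DP cells (14 mice), as points with standard errors from edgeR, for the named antibodies of each comparison. CD71 and CD304 lie far below 0 and CD5 above 0 against cycling DP, and CD5 lies below 0 against Cd69-positive DP.

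Surface CD5 of the members differed widely between mice, and the WT sorted and MHC-deficient mice had been gated on CD5 and TCRb, so that their levels of these proteins include the gate. CD5 was lowest in WT unsorted 4 and 5 at 346 and 412 per 10000 and in OT-II 1 and 2 at 459 and 407. MHCII-/- mice had 772 and 724, and F5 mice 1077 and 1168, close to OT-I mice at 1177 and 1144. MHCI-/- mice had 1186 and 1359, WT sorted mice 1304, 1277 and 1264, and AND mice the highest levels, 1635 and 1552. Among sorted mice the MHCII-/- values lay below all others, and among OT mice OT-II lay below OT-I.

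TCRb antibody was 38.1 and 41.6 per 10000 in MHCII-/-, 31.0 and 38.1 in AND, 22.2 and 29.5 in F5 and between 10.2 and 20.7 in all other mice. CD25, the interleukin-2 receptor α chain carried by earlier CD4-CD8- thymocytes, was 116 and 152 in OT-II and 114 in AND 1, and 2.58 to 27.7 in the others. *Il2ra* RNA was at 117 and 172 CPM in OT-II and 119 CPM in AND 1, and at most 80.5 CPM elsewhere. AND 1 had 13 members, of which 11 passed the antibody filter, so its CD25 and *Il2ra* values rest on few cells. The I-A/I-E antibody, to the MHC class II protein, read 0.883 and 0.886 in MHCII-/- mice and 12.7 to 157 elsewhere with *H2-Ab1* intact. The Vb5 antibody, to the β chain of the OT-I and OT-II receptors, read 27.2 and 23.8 in OT-I and 16.9 and 13.5 in OT-II members and 2.60 to 12.1 in the rest. CD49f was at 0 to 0.102 in the 6 mice of the third experiment and 79.0 to 114 in the other 11.

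**Figure D3:**
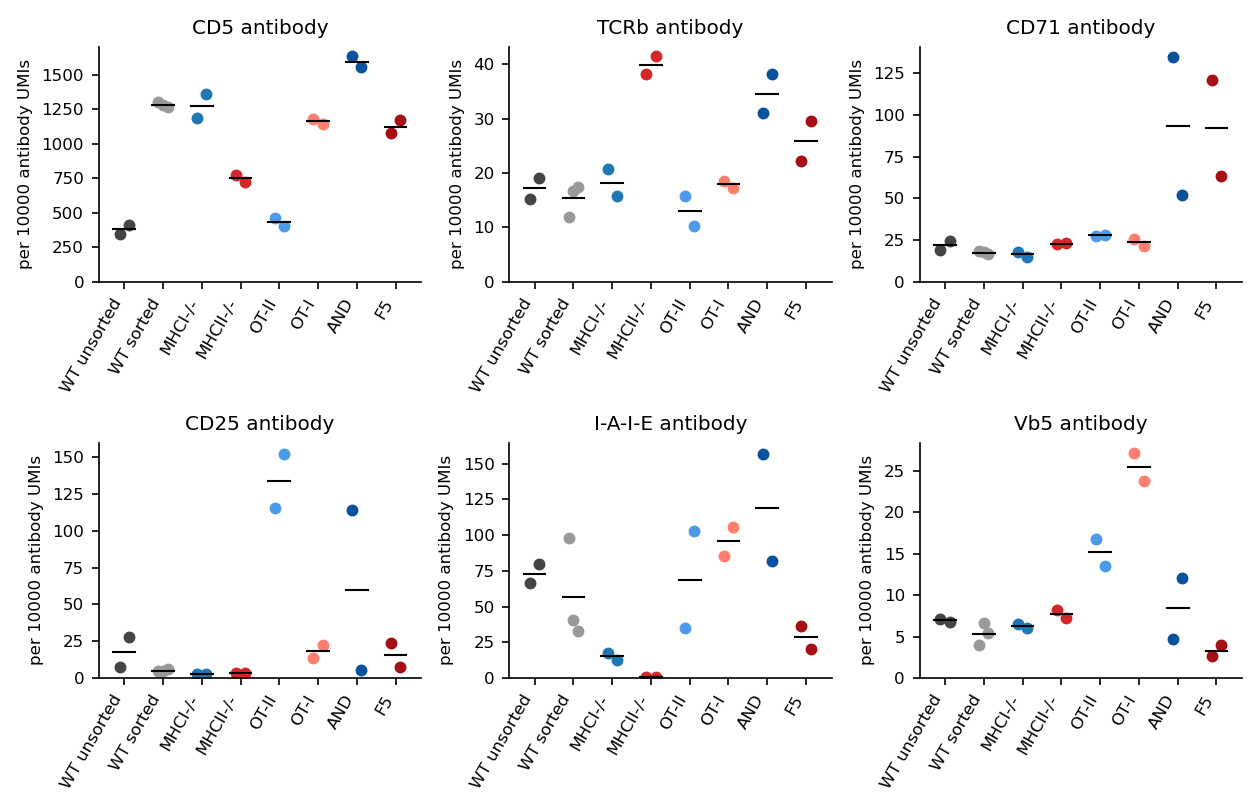
Levels of the CD5, TCRb, CD71, CD25, I-A/I-E and Vb5 antibodies in the members, per 10000 antibody UMIs, 1 point per mouse by genotype. CD71 is highest in the AND and F5 mice, CD25 in the OT-II mice and AND 1 (11 members only), and I-A/I-E is near 0 in the MHCII-/- mice.

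Members without *Cd69* UMIs may already have begun selection, and those of the MHC-deficient mice had been sorted for CD5+TCRb+ cells. For the lineage comparison, UMIs were summed per mouse and the family of genotypes was a covariate. The RNA of CD4-fated and CD8-fated members differed in 2 of 6660 genes (edgeR's quasi-likelihood test, 6 mice against 6). Both were higher in CD4-fated mice (0.0300% of genes tested) and none was lower, with 192 genes at an unadjusted p under 0.05. The count was 3 to 9 when any 1 mouse was left out and 9 without OT-II 2. It was 7 with the replicate number within family as a block, a number that for AND and F5 is also the experiment. In such sums a smaller share of a cell's RNA and fewer cells with the gene cannot be told apart. *AA467197* was at 63.0 and 68.9 CPM in MHCI-/-, 44.5 and 47.3 CPM in AND mice and at most 16.9 CPM in every other mouse, with a log2 fold change of 3.56 ± 0.58 (SE, edgeR adjusted p = 0.0222). This call was lost without any 1 of the 4 MHC-deficient mice (adjusted p = 0.0643 to 0.12), with DESeq2 (0.111), with *Rag2* in place of *Rag1* in the selection (0.162, where AND 1 with 7 members and OT-I 2 with 9 also dropped out, the minimum being 10 cells) and without the family covariate. OT mice had 0 to 3.22 CPM. The gene lies on chromosome 2 from 122636986 to 122641191 on the plus strand of mm10, and *B2m*, deleted in MHCI-/- mice, lies on the same chromosome from 122147686 to 122153083. Whether strain segments flanking a deleted gene, or the site of a transgene, bear on this gene or on the genes marked by a single genotype below was not tested. The other call, *Eif3j2*, ranged from 1.99 to 74.2 CPM where the fate was CD4 and from 0 to 6.07 CPM where it was CD8, which overlap, with means of 30.7 and 2.15 CPM (log2 3.29 ± 0.49, adjusted p = 0.0115) and was named after its values were seen.

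No gene of the 12 lists passed this test, and the list medians lay between -0.30 and 0.19 on the log2 scale, next to 0.01 over all genes tested. Among DP identity genes 9 of 20 and among TCR signal targets 6 of 15 had a fold change above 0. *Trac* had the lowest p among list genes (log2 2.26 ± 0.52, edgeR adjusted p = 0.504), and *Klf2*, a factor of mature T cells, was at 26.2 against 57.3 CPM (-0.94 ± 0.36, adjusted p = 1). No antibody of 107 was called (0%), with 8 at an unadjusted p under 0.05. TCRb was at 21.9 per 10000 in CD4-fated and 27.9 in CD8-fated members (log2 -0.69 ± 0.23, adjusted p = 0.492), and CD4 at 691 and 956 (-0.64 ± 0.30, adjusted p = 0.533).

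Single genotypes did carry marked genes. In a test of whether the lineage difference itself varied between the families of genotypes, 21 of 7093 genes passed (0.296%, edgeR). *B2m* was at 33.0 and 22.3 CPM in MHCI-/- members and 191 to 779 CPM in all other mice, and it is the gene deleted there. *Trac* was at 3236 and 5781 CPM in AND mice and 12536 and 9518 CPM in OT-II, and between 489 and 1093 CPM in every other mouse, the MHC class I-restricted F5 and OT-I included (adjusted p = 0.00216). *Hltf*, a DNA translocase of replication fork repair, was at 1381 and 2354 CPM in AND mice and 33.7 to 80.5 CPM elsewhere (adjusted p = 0.000124).

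In MHCII-/- members, *H2-T22*, a nonclassical class I gene, was at 728 and 745 CPM and at most 223 CPM in any other mouse (adjusted p = 0.0018). *H2-T3*, which encodes the TL antigen, was at 275 and 251 CPM and at most 14.8 CPM elsewhere. *Rnaset2b* was at 3.29 and 3.03 CPM against 20.8 to 223 CPM elsewhere (adjusted p = 3.91e-05), and *Hmga1*, a chromatin protein gene, at 4.11 and 1.01 CPM against 11.5 to 92.8 CPM. These 4 genes lie on chromosome 17, which also carries *H2-Ab1* from 34257689 to 34269419, *H2-T22* from 36037128 and *H2-T3* from 36185572, *Hmga1* from 27556497 and *Rnaset2b* from 6970634. *H2-T22* and *Rnaset2b* have near-identical relatives, and how reads were split among such copies is uncertain.

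OT-II members stood apart from OT-I members in further genes of that test. *Nrp1*, which encodes neuropilin-1, averaged 224 CPM in OT-II and 9.83 CPM in OT-I, and its protein read 74.6 and 52.4 against 8.02 and 6.81 per 10000. *Slc5a9* was at 105 and 104 CPM in OT-II and *Prss57* at 66.2 and 58.0 CPM, and both were at 0 UMIs in both OT-I mice. *Tmsb10*, an actin-binding thymosin, was at 578 and 569 CPM in OT-II, close to 596 and 800 CPM in WT unsorted, and at 2235 and 3071 CPM in OT-I. *Gimap4*, a GTPase gene of maturing T cells, was at 2.91 and 1.73 CPM against 73.0 and 53.6 CPM. The 5 markers of earlier CD4-CD8- thymocytes summed to 169 and 290 CPM in OT-II, 39.3 and 107 CPM in OT-I and 22.1 and 156 CPM in WT unsorted. The 4 Treg markers, which share *Il2ra* with that list, were also higher in OT-II, at 121 and 178 against 33.7 and 93.9 CPM, and *Foxp3* was at no more than 0.153 CPM in these mice. Some other markers of later cells were higher in OT-I, with 3 mature single-positive markers at 174 and 443 CPM in OT-I and 89.4 and 74.4 CPM in OT-II, 3 CD8 single-positive markers at 64.6 and 161 against 40.03 and 34.6 CPM, and 5 markers of signaled DP cells at 292 and 577 against 216 and 151 CPM. The part of these markers in the differences between OT-I and OT-II was not tested.

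**Figure D4:**
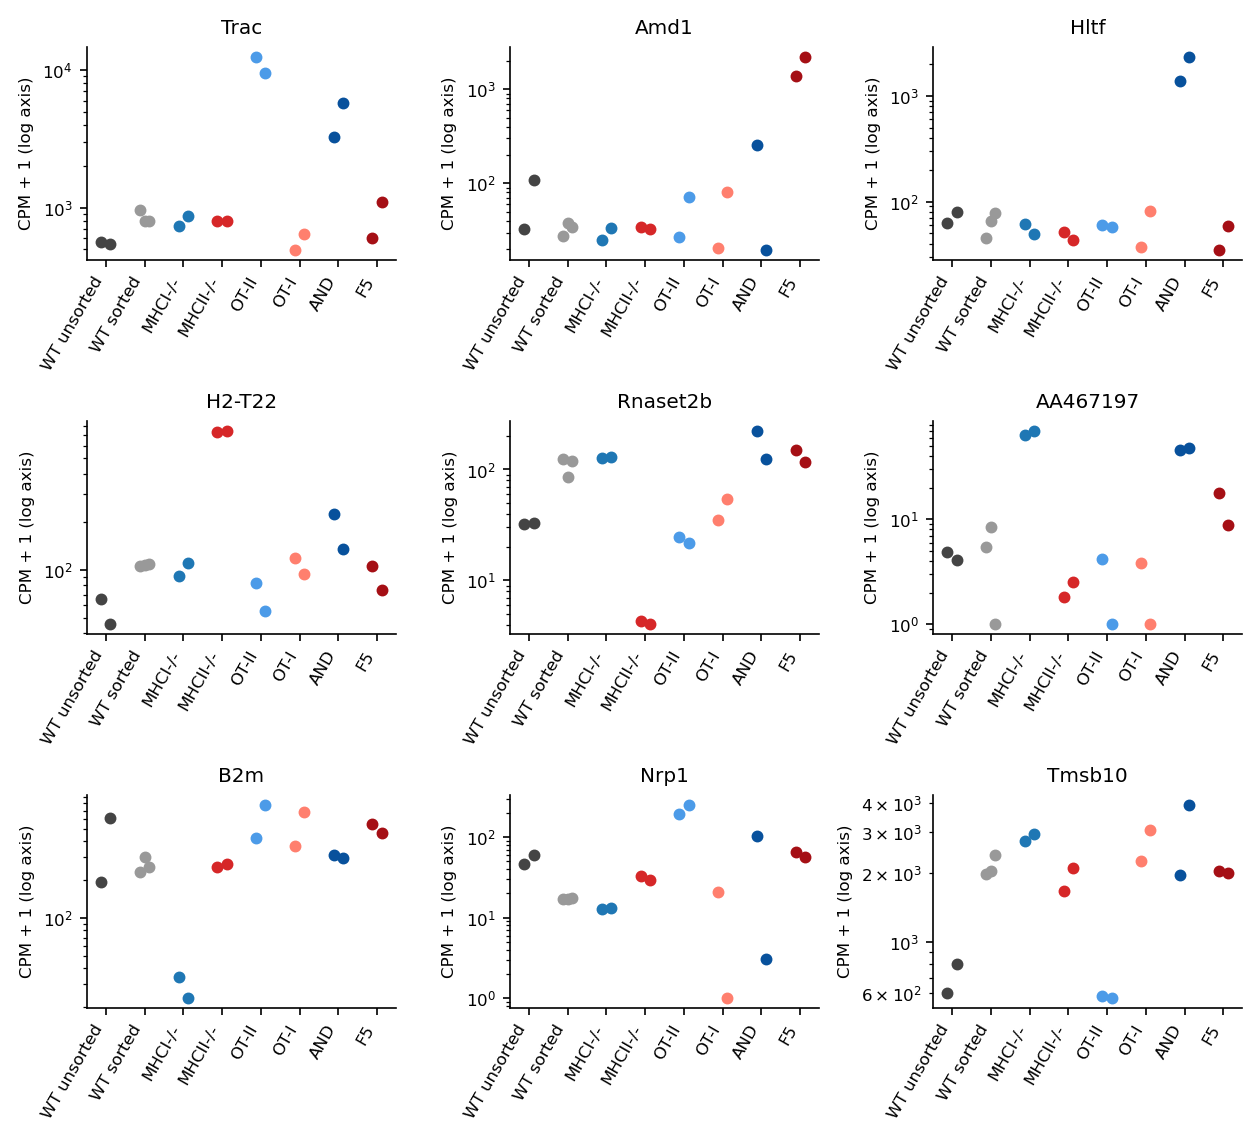
CPM in the members, with 1 added, on a log axis, 1 point per mouse by genotype, for genes marked by a genotype. *Trac* is highest in AND and OT-II, *Hltf* in AND, *Amd1* in F5, *H2-T22* in MHCII-/-, *B2m* is lowest in MHCI-/-, and *Nrp1* and *Tmsb10* separate OT-II from OT-I.

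AND and F5 members, which carried a transgenic TCR without *Rag1*, differed from members of the MHC-deficient and sorted WT mice in many genes. Of 6923 genes tested, 412 were higher (5.95%) and 291 lower (4.20%) in AND and F5 (edgeR, 4 mice against 7). The experiment was a covariate here and in the antibody comparison below, so fold changes can differ from the ratio of group means. In 562 of the 6923 genes the groups did not overlap, in either direction. Among the genes of the lists, 9 of 15 TCR signal targets were higher and 7 of 20 DP identity genes lower. AND and F5 mice were unsorted and the others sorted for CD5+TCRb+ cells, so that sort, *Rag1* loss and transgenic TCR cannot be told apart here. Depth went with the groups too. Members had a median of 3177 and 3764.5 RNA UMIs in AND mice, 5663.5 and 4063 in F5 and 1828 to 3165 in the others. Members chosen at 1500 UMIs are compared below. The rule genes also differed, with *Rag1* at 264 to 451 CPM in AND and F5 against 1198 to 1764 CPM, given as description.

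Of 15 TCR signal targets tested, 9 rose and 0 fell, with a median log2 fold change of 0.73 next to -0.02 over all genes. *Cd5* was at 119 and 347 CPM in AND mice, 196 and 287 CPM in F5 and 61.7 to 193 CPM in the other 7 mice (log2 1.39 ± 0.23, edgeR adjusted p = 0.000301). *Ikzf2*, the Ikaros family factor Helios, was at 74.2 and 306 CPM in AND mice, 308 and 379 CPM in F5 and 85.6 to 207 CPM in the others (1.59 ± 0.22, adjusted p = 5.08e-05). AND 1 lay within the other mice for *Cd5* and below them for *Ikzf2*, and the remaining 3 AND and F5 mice lay above them. *Id3* averaged 405 against 241 CPM (1.05 ± 0.17) and *Gata3* 124 against 69.1 CPM (1.09 ± 0.17). *Myc* averaged 27.8 against 4.67 CPM, *Nab2*, a corepressor of Egr factors, 33.0 against 13.1 CPM and *Egr1* 34.4 against 20.9 CPM. *Cd6* and *Tox* rose by 0.73 and 0.61 on the log2 scale.

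Of 20 DP identity genes, 7 fell and 0 rose (list median -0.35). *Ets2* was at 208 and 181 CPM in AND mice, 92.8 and 127 CPM in F5 and 285 to 335 CPM in the others, without overlap (log2 -0.97 ± 0.16, edgeR adjusted p = 0.000287). *Rag2* was at 44.5 and 130 CPM in AND mice and 97.0 and 83.2 CPM in F5, all below the 142 to 248 CPM of the others (-0.90 ± 0.17). *Satb1*, a chromatin organizer of thymocytes, averaged 1679 against 3027 CPM and *Themis* 361 against 694 CPM. *Bcl2l1*, *Runx1* and the semaphorin receptor gene *Plxnd1* also fell. *Rag2* fell in the recombination list too, with *Dclre1c*, the Artemis nuclease of hairpin opening, while *Hmgb2* rose.

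In the TCR complex list, *Trac*, *Trbc1*, *Cd2* and *Ptpn6* rose, and *Cd4* and *Trbc2* fell. For *Trac* the AND mice stood at 3236 and 5781 CPM, while F5 mice, at 597 and 1093 CPM, lay on either side of the 732 to 967 CPM of the others. *Cd4* was at 148 and 399 CPM in AND mice, 190 and 269 CPM in F5 and 511 to 597 CPM in the others, without overlap (log2 -0.89 ± 0.16, edgeR adjusted p = 0.000651). *Trbc1* averaged 8726 against 4701 CPM and *Trbc2* 4450 against 7918 CPM, in groups that did not overlap. *Trbc1* and *Trbc2* are near-identical, so the split of their reads is uncertain. *Cd2* was at 282 and 500 CPM in AND mice, 329 and 395 CPM in F5 and 159 to 300 CPM in the others. The part of the CD2 control elements of the F5 transgene in these values was not tested. Of 19 cell cycle genes outside the selection, *Ccnb2*, *Hmgb2*, *Stmn1* and *Tubb5* rose and 0 fell.

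In the remaining lists the calls were few. Of 11 cytokine receptor genes, *Il2ra*, *Ifngr1* and *Il6st* rose and *Il4ra* and *Socs1* fell. Of 11 chemokine receptor and adhesion genes, *Klf2* and the integrin chain gene *Itgb7* rose, and *Plxnd1* fell. In the quiescence list *Klf2* rose and *Klf3*, a related repressor, fell, at 156 against 244 CPM. Of 14 class I and interferon genes, the immunoproteasome subunits *Psmb8* and *Psmb9* rose and *H2-Q7* fell, a gene with near-identical copies. *Casp8* rose and *Bcl2l1* fell among 10 survival genes, and the chaperone gene *Hspa8* alone rose among 5 stress genes of cell preparation.

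**Figure D5:**
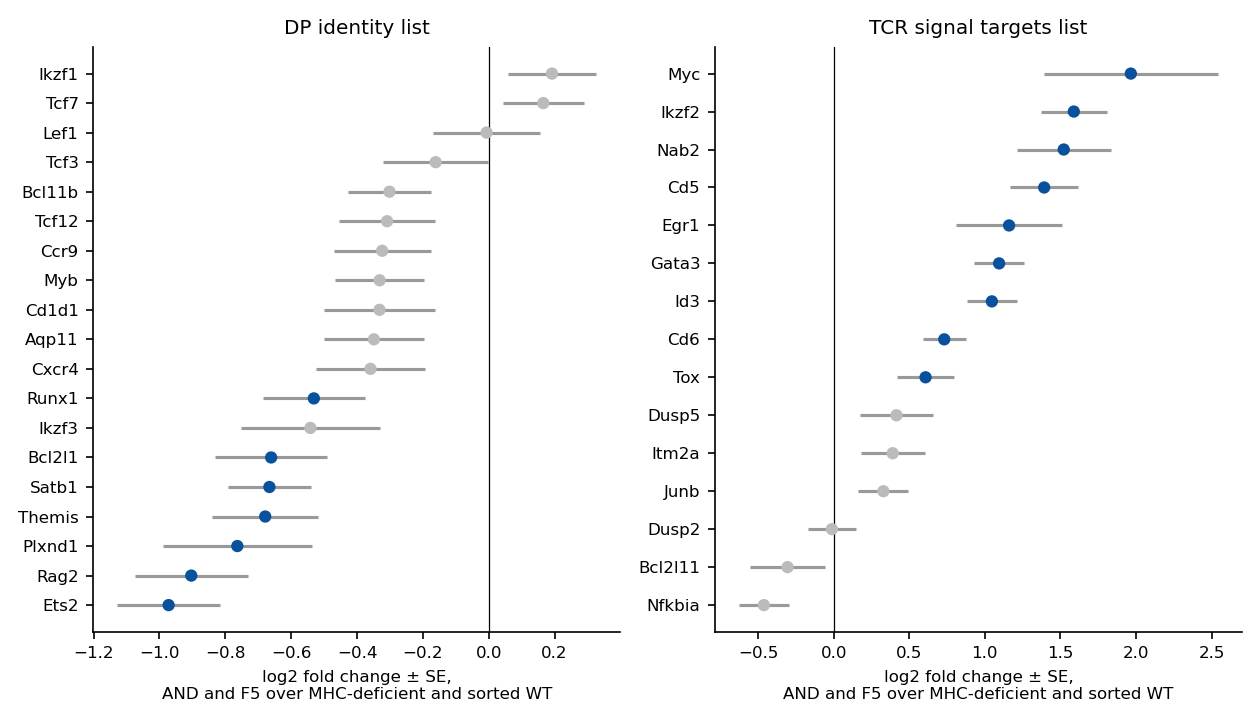
Log2 fold changes with standard errors from edgeR in AND and F5 members against members of MHC-deficient and sorted WT mice, for the genes of the DP identity and TCR signal target lists, blue where the gene passed and grey where it did not, with 19 of the 20 DP identity genes drawn. Of 20 DP identity genes 7 passed below 0, and of 15 TCR signal targets 9 passed above 0.

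The largest fold changes in this comparison were split between genes shared by AND and F5 and genes of a single genotype. *Trdc*, the TCR δ constant region on chromosome 14 from 54142851 to 54148868, was at 312 and 337 CPM in AND mice, 508 and 596 CPM in F5 and 24.3 to 63.0 CPM in the 7 other mice (log2 3.73 ± 0.20, edgeR adjusted p = 1.69e-11). *Gzma*, a granzyme, was at 401 and 162 CPM in AND mice and 641 and 498 CPM in F5 against 40.5 to 87.0 CPM (2.90 ± 0.25). *Gm43647*, an antisense transcript at chromosome 14 from 53918327 to 53961515, was at 44.5 and 193 CPM in AND mice and 105 and 144 CPM in F5 against 16.2 to 36.0 CPM. All 3 lay above the 7 other mice, among the 562 of 6923 genes without overlap in either direction. The summed level of 4 gamma-delta markers was 339 to 605 CPM in AND and F5 members and 25.3 to 66.0 CPM in the others. *Trdc*, 1 of the 4, made up most of it, at 337 of 339 CPM in AND 2 and 596 of 605 CPM in F5 2. The sum thus says little of the other markers, and its part in the other differences was not tested.

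*Amd1*, which encodes the polyamine enzyme S-adenosylmethionine decarboxylase, was at 1389 and 2217 CPM in F5, 252 CPM in AND 1 and 18.5 CPM in AND 2, where the other 7 mice had 24 to 36.8 CPM. *Cdk19os* was at 124 and 243 CPM in F5 and 14.8 and 0 CPM in AND mice. *Amd1* lies on chromosome 10 from 40287458 to 40302186 and *Cdk19os* from 40348508 to 40350103, within *Cdk19*, which was at 158 and 214 CPM in F5 members and 29.7 to 127 CPM in every other mouse. Among the lower genes, *Gm12840* was at 2.11 to 14.8 CPM in AND and F5 and 42.0 to 168 CPM in the others (log2 -4.16 ± 0.40), and *Tdrd5*, a germline Tudor-domain gene, at 0 to 18.5 against 102 to 119 CPM. *Xrra1*, *Ldlrad3*, *Slc6a19* and *Igf1r* were also lower, among the 562 of 6923 genes without overlap. *Plac8*, *Prr13*, *Cdca8* and *Hmga1* completed the higher genes with *Hltf*, *Klf2* and *Ccnb2*, and *BB031773*, *Car2*, *Slc7a11*, *Cldn4*, *BC065403* and *Slc15a2* the lower ones.

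Without F5 1, whose members held most myeloid RNA, 275 genes were higher and 207 lower. Without F5 2 the comparison called 122 genes higher and 122 lower, with 5 of 15 signal targets higher, 4 of 20 DP identity genes lower and 0 of the cell cycle genes higher. Without WT sorted 1 it called 200 higher and 147 lower. In members chosen after thinning to 1500 UMIs, which also left out AND 1 with 7 such members, 98 genes passed, next to 721 at full depth without AND 1. The thinned comparison had 5 of 12 signal targets higher and 2 of 20 DP identity genes lower. In the second experiment alone, 218 genes were higher and 163 lower, with 7 of 14 signal targets higher and 4 of 20 DP identity genes lower.

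On the surface, 8 of 107 antibodies were higher (7.48%) and 3 lower (2.80%) in AND and F5 members. CD71 was at 135 and 52.0 per 10000 in AND, 121 and 63.3 in F5 and 15.2 to 23.3 in the other 7 mice (log2 1.36 ± 0.39, edgeR adjusted p = 0.0492). The CD71 call was kept without AND 2 but lost when any other single mouse was left out (adjusted p = 0.0533 to 0.0967) and in the second experiment alone (0.103). The groups did not overlap for CD71, as for 19 of the 107 antibodies. CD137, a costimulatory receptor, was at 19.4 and 57.5 in AND and 8.90 and 10.0 in F5 against 4.58 to 6.49 in the others (1.25 ± 0.26). NKp46 rose by 2.03 ± 0.32, and the B cell antibody CD20 by 1.06 ± 0.24, on the log2 scale. Members of AND 2 had a median of 1040 antibody UMIs, against 2500 to 6487 in the other lanes. Only 69 of its 118 members passed the antibody filter, and 11 of 13 in AND 1. The part of this depth in the AND values was not tested. CD150 averaged 236 against 357 (-1.31 ± 0.29) and ICOS 39.2 against 40.8 (-0.88 ± 0.21), but the ICOS call was lost with library size in place of TMM scaling (-0.09, edgeR adjusted p = 0.771). With library size in place of TMM scaling, 60 were higher and 2 lower, and the median of all antibodies moved by 0.83 on the log2 scale. The changes given are relative to the other antibodies. CD5 antibody averaged 1358 per 10000 in AND and F5 and 1127 in the others, whereas its TMM-scaled log2 difference had the opposite sign and did not pass (-0.48 ± 0.33, edgeR adjusted p = 0.326). Both are descriptions only, since the others had been gated on CD5 and TCRb, and no direction is drawn for the CD5 protein.

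Members of OT-I and OT-II mice were compared with members of the unsorted WT mice of the same experiment. No gene of 9398 passed (0%, edgeR, 4 mice against 2), with 350 at an unadjusted p under 0.05 and 15 called by DESeq2. In simulated counts of this comparison over 9402 genes, only genes well counted in every mouse were changed. Of these, 16% of 2-fold and 82% of 4-fold changes were recovered, so smaller changes were mostly not detectable. Recovery of rarer genes was not tested. Among list and marker genes *Trdc* had the lowest p, at 191 and 215 CPM in OT-I, 139 and 96.9 CPM in OT-II and 41.0 and 45.9 CPM in WT (log2 1.87 ± 0.35, edgeR adjusted p = 0.188). *Ikzf2* averaged 202 against 85.9 CPM (1.31 ± 0.33, adjusted p = 0.558) and *Cd5* 125 against 65.6 CPM (1.01 ± 0.32, adjusted p = 0.889). The DP identity list had a median of -0.16, with 3 of 20 genes above 0, next to -0.02 over all genes, and the class I and interferon list 0.41, with 12 of 15 above 0. OT-I and OT-II differed from each other in several genes given above, and the part of this in the spread of the pooled 4 mice was not tested. No antibody of 107 passed (0%), with 23 at an unadjusted p under 0.05, Vb5 having the lowest (20.3 against 6.96 per 10000, log2 2.31 ± 0.57, edgeR adjusted p = 0.22).

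Members that came through the CD5+TCRb+ sort were compared with members of unsorted WT thymus, where the sort, the site and the experiment cannot be told apart. Of 8363 genes, 2 were higher (0.0239%) and 3 lower (0.0359%) in sorted mice (edgeR, 3 mice against 2), with 1097 at an unadjusted p under 0.05. In simulated counts of this comparison over 8367 genes, 17% of 2-fold and 86% of 4-fold changes were recovered among genes well counted in every mouse. *Rnaset2a* was at 98.9, 98.0 and 114 CPM in the sorted and 28.2 and 23.3 CPM in the unsorted mice (log2 1.94 ± 0.27, edgeR adjusted p = 0.0268). *Phpt1*, a phosphohistidine phosphatase gene, averaged 136 against 33.2 CPM. Both were also low in the OT mice of the third experiment, at 14.04 to 40.2 CPM for *Rnaset2a* and 0 to 39.4 CPM for *Phpt1*. The lower genes were the globins *Hbb-bs*, *Hba-a1* and *Hba-a2*, with *Hbb-bs* at 259 and 254 CPM in unsorted mice and 0 UMIs in each sorted mouse. Erythrocyte genes moved with the sort and site as a group, summing to 0 to 0.891 CPM in sorted and 347 and 502 CPM in unsorted members. No gene of the DP identity list passed, and its median was 0.00, with 10 of 20 genes above 0.

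The call count of this comparison was 1 when any 1 of the sorted mice was left out. Without WT unsorted 4 or 5 it was 3212 or 208, but a single unsorted mouse then remained, assumed to vary like the sorted ones, so these counts say little of stability. *Cd2* was at 174, 216 and 245 CPM in sorted and 73.8 and 69.2 CPM in unsorted members (log2 1.5 ± 0.27, edgeR adjusted p = 0.0725), and *Cd5* averaged 134 against 65.6 CPM (0.97 ± 0.30, adjusted p = 0.295). Of 105 antibodies other than those of the rule and the sort, 13 were higher (12.4%) and 20 lower (19.0%) in sorted mice. CD49f, at 97.1 against 0.0825 per 10000, is counted among the higher antibodies, but it was near 0 in every mouse of the third experiment, and whether its tag was read there was not tested. CD103, CD172a, CD150, CD11a, ICOS and CD4 were higher, CD4 at 895 against 579 per 10000 (log2 0.88 ± 0.19, adjusted p = 0.0172), and CD62L and CD102 rose too. CD90.2 was at 424 against 1560 (-1.62 ± 0.20) and c-Kit at 8.85 against 38.0 (-1.87 ± 0.23), and CD49d, NKp46, CD62P and CD300LG also fell. With library size in place of TMM scaling 10 were higher and 37 lower. Without WT sorted 1 the count of antibodies called was 67, and without WT unsorted 4 or 5 it was 10 or 8.

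The members were not uniform within a lane. In the 16 lanes with at least 100 members, variance beyond Poisson counting was estimated for 4336 genes as the excess variance divided by the squared mean, and its median over genes was 0.132. *Ifi27l2a*, an interferon-inducible gene, had the highest median over lanes, 17.2, with a UMI in 7.66% of members of a lane. *Apoe*, apolipoprotein E, followed at 11.2, then *Exosc2* at 6.99, *Trdc* at 5.87, *Phlda1* at 5.80 and *Gzma* at 5.65. *Ms4a4b* and *Itm2a*, genes of maturing T cells, had 5.50 and 4.97, and *Cenpa*, a centromere histone of dividing cells, 5.30. *Polr2l*, *Gm525* and *H1f0* completed the 12 most variable genes, detected in 10.2% to 15.5% of members. Lanes differed widely in these estimates, from -1.03 to 58.5 for *Ifi27l2a* and from 1.15 to 82.4 for *Itm2a*.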

How the data were processed

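RNA and surface antibodies of thymocytes were measured by CITE-seq (10x 3′ v3) in 17 mice. The authors aligned reads to mm10 (GRCm38) with Cell Ranger 3.1.0 and deposited a matrix of raw UMI counts per lane, with genes and antibodies as features, used here as deposited. Pooled matrices that repeat the lanes were not used. Members and gene lists were chosen with earlier results of these data known. Gene positions came from GENCODE on GRCm38, matched by gene ID.

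UMIs of members were summed per mouse (lanes of a mouse together, at least 10 cells) and compared in edgeR 4.0.16 under R 4.3.3 (quasi-likelihood, TMM, its low-count filter, Benjamini-Hochberg adjustment over all genes at 0.05). DESeq2 1.42.0 was an alternative. The 111 antibodies were summed over members with 1000 to 10000 antibody UMIs and at least 70 antibodies detected. Standard errors follow from the F statistic. CPM and values per 10000 antibody UMIs use each mouse's own total. Intervals of shares are exact binomial at 95% and cover counting error only. Doublets were scored per lane with Scrublet in scanpy 1.11.5, the highest-scoring 0.8% per 1000 barcodes being called. They were kept, and left out in an alternative. Named genes were the genes of the selection, list genes of the highest CPM or called, up to 12 called genes per direction by fold with a mean of at least 20 CPM (antibodies, 10 per 10000), and the 12 most variable genes among members. The rule genes stayed in the fits but were not called. Results of some genes are not reported here. The fits were tested on simulated data, where changes were given only to genes well counted in the mouse with the fewest member UMIs. Of these, 2-fold changes were recovered in 92% of cases for CD4-fated against CD8-fated (6664 genes simulated). For AND and F5 against MHC-deficient and sorted WT it was 100% (6927 genes simulated). The simulation used a single dispersion for all genes and no difference between families or experiments. Recovery of rarer genes was not tested.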

Additional observations from a re-analysis of the deposited data

Results flagged for a closer look

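In groups of 4 to 10 mice, 66 sets of values were examined for a mouse far from the rest, and 4 stood out, close to the number that the chance rate of about 1 in 20 gives. *Cdca8*, a mitotic gene, was at 119 CPM in AND 1 (8 UMIs in 13 members), away from the other AND and F5 mice, and *Xrra1* at 69.0 CPM in MHCI-/- 1, away from the other MHC-deficient and sorted WT mice. The CD20 antibody at 17.3 and the ICOS antibody at 66.7 per 10000 in WT sorted 1 lay apart from the same group.

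The CD4-fated minus CD8-fated difference varied between the families of genotypes for 21 genes (edgeR, adjusted over 7093 genes). The adjusted p was 3.91e-05 for *Rnaset2b*, 0.000124 for *Hltf*, 0.00102 for *Gimap4*, 0.0018 for *H2-T22*, 0.00216 for *Gm16867* and *Trac*, and 0.0053 for *H2-T3*. It was 0.00662 for *Wnt8b*, 0.00673 for *Ly6d*, 0.0127 for *Slc5a9*, 0.0156 for *B2m*, 0.0219 for *Tdrp*, 0.0223 for *Nrp1*, 0.0232 for *Pla2g16* and 0.0293 for *Tmsb10*. It was 0.0308 for *Syt13* and *Gimap3*, 0.0319 for *Prss57* and *Tmem176b*, 0.0341 for *Tspan2* and 0.0453 for *Hmga1*. *Wnt8b*, a Wnt ligand gene, averaged 105 CPM in AND and 11.6 CPM in F5 but 10.9 CPM in OT-II and 44.3 CPM in OT-I. *Ly6d*, a lymphocyte surface antigen gene, averaged 448 CPM in AND and 1686 CPM in F5, against 1273 CPM in OT-II and 289 CPM in OT-I. *Gm16867* was at 0 UMIs in both AND and both MHCII-/- mice and at 35.5 CPM in F5 and 22.7 CPM in MHCI-/-. Each genotype had 2 mice.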

How the results depend on the processing

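The difference in the share of members ran from -0.178 (without OT-II 1) to 4.985 points without each mouse, and reversed in no other setting tried. The RNA count of the lineage comparison (2) was 39 without the low-count filter, 9 in members chosen at 1500 UMIs (without AND 1, then under 10 members), 0 without the family covariate, 1 with *Rag2* in place of *Rag1* (AND 1 and OT-I 2 then dropped out, with under 10 members), 5 without AND 1 and F5 1, 1 in the MHC-deficient and OT mice alone, and 3 to 9 without each mouse in turn. The 1 call with *Rag2* and the 1 call in the MHC-deficient and OT mice alone held 0 of the 2 original genes. The 9 calls at 1500 UMIs held 1 of them. With the replicate number within each family as a block in place of family the count was 7, both original genes among them, and 0 antibodies. Same-numbered mice correlated at 0.13 (AND with F5), 0.01 (MHC-deficient) and 0.45 (OT), and the main fit did not pair them. For AND and F5 the number is also the experiment, which the main fit thus left in the spread within that family. Antibodies called there were 0 to 1 without each mouse. For OT against unsorted WT, RNA calls (0) were 15 with DESeq2, 99 without the filter, 2 at 1500 UMIs and 0 to 9 without each mouse, and antibodies 0 to 1. For AND and F5, 703 RNA calls became 98 at 1500 UMIs (also without AND 1), 381 in the second experiment alone and 244 to 926 without each mouse, and 11 antibodies became 62 with library size and 9 to 29 without each mouse. For sorted against unsorted WT, 5 RNA calls became 43 with DESeq2, 322 without the filter and 1 to 3212 without each mouse (here and for OT, a lone unsorted mouse is assumed to vary like the other group), and 33 antibodies 8 to 67. Antibody calls against Cd69-positive DP (6) became 3 with library size, 0 at 1500 UMIs and 0 to 3 without each genotype, and those against cycling DP (60) became 38 with library size and 38 at 1500 UMIs. The settings without AND 1 and F5 1, with the MHC-deficient and OT mice alone and with the second experiment alone were chosen after seeing the data. Why these counts moved was not tested. Of the named features, 828 values under alternatives kept their call and 126 did not, and none reversed. Limits are 2 mice per genotype, 13 members in AND 1, and few UMIs per cell, so that a gene at 0 in a member may be missed.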
